A study of Mus musculus with 42 samples.

Results

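The liver of mice that received TCPOBOP, which activates CAR, the constitutive androstane receptor, in the mouse, while on a diet with 1% cholesterol was compared with the liver of mice that received vehicle on standard diet. These groups were taken by the titles of the samples and hold 6 mice each, 12 of the 42 samples of the series. All were female C57BL/6 mice. The treated mice were 18 weeks old, had eaten the cholesterol diet for 1 week and received 1 intraperitoneal injection of 3 mg/kg TCPOBOP in corn oil. The control mice were 19 weeks old, stayed on standard chow and were injected with corn oil alone. All were killed 24 h after the injection. Drug, diet and age therefore differ together between the groups, and their parts in a difference cannot be told apart in this comparison alone. Mice given TCPOBOP on standard diet (6) and vehicle on cholesterol diet (5 with scanner values), all 19 weeks old, give values to set beside it.

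CAR is a nuclear receptor of hepatocytes that induces genes for the oxidation, conjugation and export of drugs, bile acids and bilirubin, with Cyp2b10 as its best known target. The synthesis of cholesterol is under separate control of the SREBP2 transcription factor, which is held in the endoplasmic reticulum by the INSIG proteins when sterols are plentiful. Cholesterol in the diet thus lowers the mRNAs of the synthesis pathway, and the liver removes cholesterol as bile acids and in bile.

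Liver RNA of each mouse, labelled with Cy3, was hybridized with a Cy5-labelled pool of liver RNA from mice of both diets and all treatments to a Steroltalk cDNA array, which carries genes of sterol, drug and energy metabolism. The values below are log2 ratios of the mouse to the pool, and a difference of 2 group means is a log2 fold change. On the 12 arrays the median signal over background was 163 to 290 intensity units, and 62.0% to 77.5% of the mouse probes lay above background. The pool was shared by both groups, and the ratios of the 2 groups ran against each other, with a correlation down to -0.67 between arrays of different groups, while all arrays within a group correlated above 0.19. The hepatocyte markers Alb, Apoa1 and Hnf4a, 3 of 7 in the list, were above background in 6 of 6 mice of each group, and 0 of the 3 were called. Of other cells, the macrophage marker Msr1 and the adipocyte marker Lep were not well above background in any of the 12 mice. The adipocyte marker Adipoq was above it in 4 of 6 treated and 6 of 6 control mice and was called lower (log2 fold change -0.17, SE 0.04, limma adjusted p = 0.00415), with 6 of 6 treated mice below all controls. With the deposited log ratios its value was 0.17 and did not pass. Markers of stellate, endothelial, bile duct and blood cells have 0 genes on the array. In such whole-liver RNA, fewer cells of a type and less RNA per cell cannot be told apart.

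TCPOBOP with cholesterol changed 86 of the 277 measured genes, 31% of them, of which 48 (17.3%) were higher and 38 (13.7%) lower at an adjusted p under 0.05 from limma. For 55 genes (19.9%) the 6 treated mice lay beyond all 6 control mice, 38 on the high side (13.7%) and 17 on the low side (6.14%), and all 55 were among the 86. The median log2 fold change over all genes was -0.02. The strongest rises belonged to the CAR targets Cyp2b10 and its relatives, and the strongest falls to the serum amyloid A genes and to Ppp1r3c, a subunit that directs protein phosphatase to glycogen. Of the 86 genes, 3 (Rarg, Foxa1 and Jun) were below background in both groups, and no fold is given for them. With loess drawn through the spike-in controls instead of the mouse spots, 73 genes were called, 53 higher and 20 lower.

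**Figure D1:**
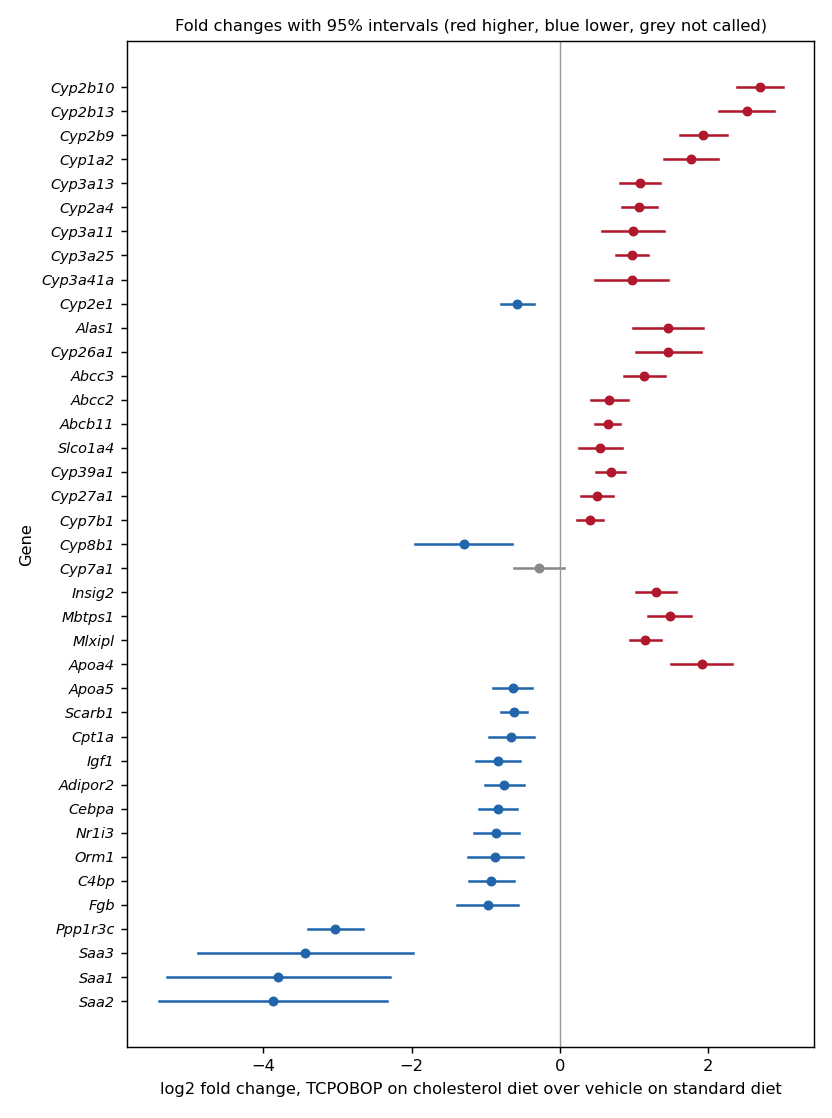
Log2 fold change of TCPOBOP on cholesterol diet over vehicle on standard diet for 39 genes, with n = 6 mice per group; points are estimates from limma and lines are 95% intervals. Cyp2b10 at 2.70 stands at the top and Saa2 at -3.87 at the bottom, where the intervals of the 3 Saa genes are the widest.

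The RefSeq promoters of the genes with the strongest rise are shown to compare the Cyp2b copies. Whether the probes separate their transcripts was not tested. Each window spans the start of the gene in build GRCm38.p6, with most of its bases upstream. It lies at chr7:25897408-25897707 for Cyp2b10, chr7:26061245-26061544 for Cyp2b13 and chr7:26173159-26173458 for Cyp2b9, all on the plus strand. Capitals mark AGGTCA, the core hexamer bound by many nuclear receptors, and TTGCNNAA, a core of C/EBP sites, on either strand.
Cyp2b10: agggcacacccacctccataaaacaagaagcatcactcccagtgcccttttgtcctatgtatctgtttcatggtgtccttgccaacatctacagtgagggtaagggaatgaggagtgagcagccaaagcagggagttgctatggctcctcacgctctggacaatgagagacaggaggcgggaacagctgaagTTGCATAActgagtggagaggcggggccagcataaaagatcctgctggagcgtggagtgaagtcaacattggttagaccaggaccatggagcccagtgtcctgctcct
Cyp2b13: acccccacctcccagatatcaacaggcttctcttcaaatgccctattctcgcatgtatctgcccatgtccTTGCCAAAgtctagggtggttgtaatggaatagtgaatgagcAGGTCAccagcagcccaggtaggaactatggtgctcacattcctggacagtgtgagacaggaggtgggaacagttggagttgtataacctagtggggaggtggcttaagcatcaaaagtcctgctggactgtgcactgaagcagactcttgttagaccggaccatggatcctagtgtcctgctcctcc
Cyp2b9: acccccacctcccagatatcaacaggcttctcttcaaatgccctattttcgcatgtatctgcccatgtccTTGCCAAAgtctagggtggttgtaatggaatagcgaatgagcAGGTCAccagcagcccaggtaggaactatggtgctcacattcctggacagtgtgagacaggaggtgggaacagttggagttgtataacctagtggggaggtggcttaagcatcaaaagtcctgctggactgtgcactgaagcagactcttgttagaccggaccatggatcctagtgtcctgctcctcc
The windows of Cyp2b9 and Cyp2b13 were identical at 99.3% of aligned positions, and that of Cyp2b10 was 73.2% identical to each. AGGTCA stood in the Cyp2b9 and Cyp2b13 windows, at position -138 counted from the start, and TTGCNNAA in all 3. Sites farther upstream, outside the windows, were not searched. Of 32851 mouse promoter windows, 16.3% hold AGGTCA and 10.8% hold TTGCNNAA.

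Of 18 drug-metabolizing P450 genes measured, 11 rose and 2 fell, and 5 did not pass the test. Their median log2 fold change was 0.65. Of all 277 genes, 17.3% were called higher and 13.7% lower. Cyp2b10, the P450 used as the marker of CAR activity, had log2 ratios of 0.99 to 1.30 (median 1.15) in the treated mice and of -1.75 to -1.42 (median -1.51) in the controls. The groups did not overlap, and the mean rose by 2.70 (standard error, SE, 0.15; limma adjusted p = 8.29e-12), or 6.48-fold. The spread within either group was small against this step. This fold is one of array ratios. The study's RT-PCR, against vehicle on the same diet, gave much larger folds for Cyp2b10 and Cyp3a11. Cyp2b13, a female-predominant relative, ran from 0.98 to 1.61 in the treated and from -1.47 to -1.13 in the control mice and rose by 2.52 (SE 0.18). Cyp2b9 rose by 1.93 (SE 0.15), again without overlap.

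Cyp1a2, which metabolizes caffeine and aromatic amines, was at 0.28 to 1.17 (median 1.06) in the treated and at -0.58 or less (median -0.85) in the control mice. It rose 3.41-fold, with a log2 fold change of 1.77 (SE 0.17, limma adjusted p = 4.91e-08). The Cyp3a genes, which oxidize steroids, bile acids and many drugs, rose by less. Cyp3a11 had ratios of 0.02 to 0.54 in treated and -1.06 to -0.57 in control mice and rose 1.98-fold (log2 fold change 0.99, SE 0.20, limma adjusted p = 0.000524). Cyp3a13, Cyp3a25 and Cyp3a41a rose by 1.08, 0.98 and 0.96 on the log2 scale, all with the treated mice above all control mice. Cyp2a4, a testosterone hydroxylase, rose by 1.07 (SE 0.11) and Cyp2a12 by 0.33 (SE 0.09). Cyp1a1 was called higher but was not well above background in any control mouse, so no fold is given. Cyp2e1, the ethanol-oxidizing P450, fell by 0.57 (SE 0.11, limma adjusted p = 0.000194) with all treated mice below all controls. Cyp2d22 fell by 0.27 (SE 0.08), a call that ended under median centring (-0.15), spike-in loess (-0.06) and the deposited log ratios (-0.11). Members of the Cyp2b, Cyp2a and Cyp3a families share sequence, and the cDNA probes may not separate them.

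Alas1, whose enzyme limits the supply of heme for P450s, had ratios of 0.16 to 1.38 in treated and of -0.89 to -0.33 in control mice. It rose 2.73-fold (log2 fold change 1.45, SE 0.23, limma adjusted p = 2.58e-05). Cyp26a1, which degrades retinoic acid, was at 0.13 to 1.18 and at -1.04 to -0.59 and rose by 1.46 (SE 0.21). Rarb, a retinoic acid receptor gene that retinoic acid itself induces, rose by 0.94 (SE 0.08, limma adjusted p = 8.98e-09). Rarb was above background in only 1 of 6 control mice, so the size of its change is uncertain, and it ran from 0.78 to 1.69 over the other settings. In all 3 genes, 6 of 6 treated mice lay above every control mouse.

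**Figure D2:**
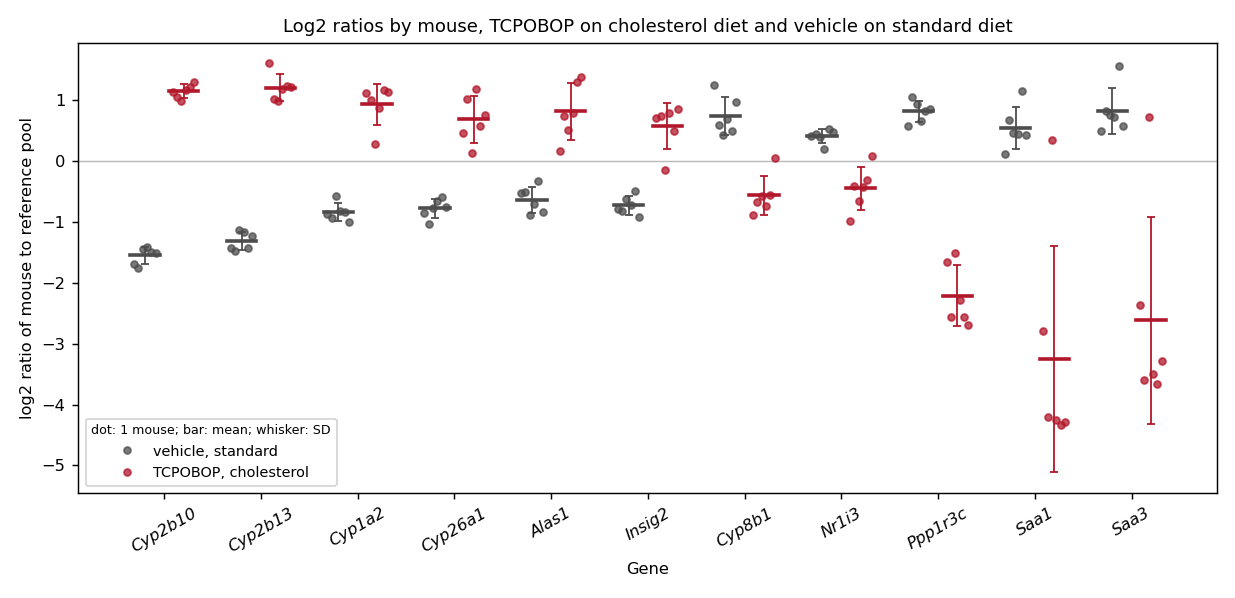
Log2 ratio of each mouse to the reference pool for 11 genes, in the 6 control mice (grey) and the 6 mice given TCPOBOP on cholesterol diet (red); dots are mice, bars means and whiskers SDs. The groups are apart for all but the Saa genes, where 1 treated mouse lies among the controls.

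Nr1i3, the gene of CAR itself, fell. Its ratios were -0.98 to 0.08 (median -0.42) in treated and 0.19 to 0.52 (median 0.43) in control mice, a log2 fold change of -0.86 (SE 0.14, limma adjusted p = 6.97e-05). Nr1i2, the gene of the related pregnane X receptor, rose by 0.30 (SE 0.06, limma adjusted p = 0.000905). Of 25 nuclear receptor genes measured, 4 rose and 5 fell, with a median of -0.03, where 17.3% of all genes rose and 13.7% fell. Nr5a2, a receptor that drives bile acid genes, rose by 0.43 (SE 0.08). Pparg, which promotes lipid storage, fell by 0.30 (SE 0.09), a call that ended with spike-in loess (-0.18) and the deposited ratios (-0.16). Ppara, of the same family, fell by 0.37 (SE 0.13, limma adjusted p = 0.0303). That call ended with spike-in loess (-0.36), the deposited ratios (-0.40), and without control mouse 2, 3, 5 or 6 or treated mouse 1 or 4. Cebpa, a transcription factor of differentiated hepatocytes, went from 0.11 to 0.65 in control to -0.85 to -0.14 in treated mice and fell by 0.84 (SE 0.12). Foxa2, a pioneer factor of liver genes, had ratios of -0.19 to 0.26 in treated and -0.57 to -0.07 in control mice, which overlap, and rose by 0.38 (SE 0.10, limma adjusted p = 0.0034). Of the co-regulators, Ncor1, a co-repressor of nuclear receptors, rose by 0.30 (SE 0.07), and Sirt1, a NAD-dependent deacetylase, fell by 0.25 (SE 0.07), a call that ended with spike-in loess (-0.11) and the deposited ratios (-0.15).

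The serum amyloid A genes, which encode acute phase proteins carried on high density lipoprotein, had the largest falls and the largest spread. The Saa1 ratio was -4.33 to 0.34 (median -4.23) in treated mice and 0.11 to 1.15 (median 0.45) in controls. In 5 of 6 treated mice it lay below every control mouse, while treated mouse 3 lay at 0.34, within the control range. The log2 fold change of Saa1 was -3.80 (SE 0.72, limma adjusted p = 0.000254), or 13.9-fold. Saa2 and Saa3 had log2 fold changes of -3.87 (SE 0.74) and -3.43 (SE 0.70), with treated mouse 3 at 0.34 and 0.72. Without that mouse the log2 fold changes were -4.51 for Saa1 (22.9-fold), -4.60 for Saa2 (24.3-fold) and -4.10 for Saa3 (17.2-fold).

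The Saa1 and Saa2 promoters are shown because these neighbouring copies had the largest falls. Whether the probes separate their transcripts was not tested. The windows lie at chr7:46742931-46743230 on the minus strand and at chr7:46751583-46751882 on the plus strand, with the same motifs in capitals.
Saa1: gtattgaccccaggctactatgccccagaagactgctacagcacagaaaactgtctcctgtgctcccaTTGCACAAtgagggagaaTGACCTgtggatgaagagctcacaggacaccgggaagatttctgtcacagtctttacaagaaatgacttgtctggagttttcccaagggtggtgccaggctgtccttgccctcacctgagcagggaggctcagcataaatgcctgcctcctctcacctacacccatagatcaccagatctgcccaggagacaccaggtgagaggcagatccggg
Saa2: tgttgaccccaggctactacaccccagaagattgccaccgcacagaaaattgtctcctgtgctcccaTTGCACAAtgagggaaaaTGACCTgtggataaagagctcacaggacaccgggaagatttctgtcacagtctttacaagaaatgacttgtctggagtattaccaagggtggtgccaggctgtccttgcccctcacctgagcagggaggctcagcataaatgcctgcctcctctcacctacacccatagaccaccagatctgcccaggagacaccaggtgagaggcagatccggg
They were identical at 95.3% of aligned positions. TTGCNNAA stood at position -182 in Saa1 and -183 in Saa2, followed in both by AGGTCA on the opposite strand.

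Of 10 acute phase genes, 5 fell and 1 rose, with a median of -0.62, beside 13.7% lower and 17.3% higher of all genes. Orm1, which encodes orosomucoid, fell by 0.87 (SE 0.18) and Fgb, the beta chain of fibrinogen, by 0.97 (SE 0.20), both with all treated mice below all controls. Crp, a pentraxin that is only a minor acute phase protein in the mouse, rose by 0.45 (SE 0.11, limma adjusted p = 0.00206). Saa4, Alb, Apcs and Hpx, with log2 fold changes of -0.17, -0.26, -0.34 and -0.36, did not pass the test. Hpx lay below all controls in 5 of 6 treated mice and passed as lower where only the compared groups were fitted (limma adjusted p = 0.00504), and Saa4 and Alb passed as lower with plain background subtraction (limma adjusted p = 0.0293 and 0.0289). Of 6 complement and coagulation genes, 2 fell and 4 did not pass, where 13.7% of all genes fell and 31% were called. This list leaves out the probe named C4, which was named after its values were seen. Its ratios were -0.34 to -0.05 in treated and 0.17 to 0.69 in control mice, without overlap. C4bp, an inhibitor of the classical pathway, fell by 0.92 (SE 0.14, limma adjusted p = 2.52e-05) and C2 by 0.61 (SE 0.17). Stat3, which carries the interleukin-6 signal to acute phase genes, fell by 0.36 (SE 0.10), a call that ended with median centring (-0.38) and spike-in loess (-0.37) at a like size.

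Ppp1r3c had ratios of -2.69 to -1.52 (median -2.42) in treated and of 0.58 to 1.05 (median 0.84) in control mice. It fell by 3.03 on the log2 scale (SE 0.18, limma adjusted p = 1.43e-11), or 8.15-fold, and no treated mouse came near the controls. It was the only 1 of 8 genes of gluconeogenesis and glycogen that passed, where 31% of all genes did. Pck1, the committing enzyme of gluconeogenesis, had a log2 fold change of -0.34 (95% interval -0.69 to 0.00, limma adjusted p = 0.126). Of 7 genes of glycolysis and glucose transport, 3 rose and 1 fell, where 17.3% of all genes rose and 13.7% fell. Mlxipl, which encodes the glucose-responsive factor ChREBP, went from -0.81 to -0.52 in control to 0.19 to 0.82 in treated mice and rose 2.22-fold (log2 fold change 1.15, SE 0.10, limma adjusted p = 8.98e-09). Pdhb, a subunit of pyruvate dehydrogenase, rose by 0.62 (SE 0.07) and Slc2a1, a glucose transporter, by 0.27 (SE 0.05). Slc2a4, the insulin-responsive transporter, fell by 0.35 (SE 0.08).

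Igf1, the growth factor that the liver secretes under growth hormone, had ratios of -1.31 to -0.12 in treated and of -0.07 to 0.12 in control mice and fell by 0.84 (SE 0.14, limma adjusted p = 8.76e-05). Adipor2, an adiponectin receptor of the liver, fell by 0.75 (SE 0.13). Both were called with all treated mice below all controls. Cpt1a, the gate of mitochondrial fatty acid oxidation, fell by 0.66 (SE 0.15, limma adjusted p = 0.00105). Fasn, the fatty acid synthase, had a log2 fold change of 0.14 (95% interval -0.34 to 0.62), and Scd1, the stearoyl-CoA desaturase, of -0.06 (95% interval -0.98 to 0.86). Cry1, a repressor of the circadian clock, fell by 0.50 (SE 0.13), with treated mouse 3 at 0.29 within the control range of 0.06 to 0.45. Of the 8 listed clock genes, which leave out Nr1d2, it was the only 1 that passed, where 31% of all genes did. In 4 of the 8, both groups were below background. Nr1d2, a clock repressor named after its values were seen, rose by 1.10 (SE 0.21, limma adjusted p = 0.000255).

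Of 8 bile acid synthesis genes, 4 rose and 1 fell, with a median of 0.15, where 17.3% of all genes rose and 13.7% fell. Cyp8b1, the enzyme that makes cholic acid, had ratios of -0.88 to 0.05 in treated and of 0.43 to 1.24 in control mice and fell 2.46-fold (log2 fold change -1.30, SE 0.31, limma adjusted p = 0.00242). The genes that rose make or use oxysterols. Cyp39a1 rose by 0.68 (SE 0.09), Cyp27a1 by 0.49 (SE 0.10) and Cyp7b1 by 0.41 (SE 0.08), each with all treated mice above all controls. Cyp7a1, which sets the pace of the classical route, had ratios of -0.31 to 0.46 in treated and -0.02 to 0.68 in control mice. Its log2 fold change was -0.28 (95% interval -0.62 to 0.06, limma adjusted p = 0.207).

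Of 13 transporters of bile acids and drugs, 5 rose and 1 fell, where 17.3% of all genes rose and 13.7% fell. Abcc3, which exports conjugates to the blood, went from -0.42 to 0.03 in control to 0.58 to 1.10 in treated mice and rose 2.19-fold (log2 fold change 1.13, SE 0.13, limma adjusted p = 5.16e-07). Abcc2, the canalicular exporter of conjugates, rose by 0.66 (SE 0.12) and Abcb11, the bile salt export pump, by 0.64 (SE 0.08). Slco1a4, an uptake carrier, rose by 0.54 (SE 0.14). Slc10a2, a sodium-dependent bile acid carrier best known from the ileum, was not well above background in any control mouse and was at least 1.49-fold higher in the treated mice (limma adjusted p = 5.16e-07). The bound sets the mean of the brighter group against that of the dimmer group. Signals of the dimmer group below the lowest one counted as above background on their array were first raised to it. Abcc1, another conjugate exporter, fell by 0.45 (SE 0.12), a call that ended with the deposited ratios (-0.40). Slc10a1, the main carrier for bile acid uptake, had a log2 fold change of 0.00 (95% interval -0.18 to 0.19).

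Apoa4, an apolipoprotein of triglyceride-rich particles, had ratios of 0.36 to 1.32 in treated and of -1.37 to -0.80 in control mice and rose 3.76-fold (log2 fold change 1.91, SE 0.20, limma adjusted p = 9.61e-08). Of the 12 lipoprotein and lipase genes, Lip1, which encodes the lysosomal acid lipase that splits cholesteryl esters, also rose, by 0.50 (SE 0.08), and 3 fell. Among all genes, 17.3% rose and 13.7% fell. Apoa5, an activator of plasma triglyceride breakdown, fell by 0.64 (SE 0.13). Apoa2, a protein of high density lipoprotein, fell by 0.40 (SE 0.11), a call that ended under median centring (-0.31), spike-in loess (-0.37) and the deposited ratios (-0.29). Apoa1, the main protein of high density lipoprotein, had a log2 fold change of 0.01 (95% interval -0.31 to 0.34).

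Of 5 sterol transporters, 1 fell, where 13.7% of all genes did. Scarb1, the receptor that takes up cholesterol from high density lipoprotein, went from 0.12 to 0.39 in control to -0.59 to -0.23 in treated mice and fell by 0.62 (SE 0.09, limma adjusted p = 5.49e-06). Abcg5 and Abcg8, which together export sterols to bile, had log2 fold changes of -0.30 (95% interval -0.78 to 0.18) and -0.43 (95% interval -0.95 to 0.10). Against vehicle on the same cholesterol diet, a comparison with 104 of 277 genes called (37.5%), both were lower in the mice given TCPOBOP, by 0.85 (SE 0.24) and 0.99 (SE 0.26).

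Of 18 genes of cholesterol synthesis measured, 0 were higher, 2 were lower and 16 did not pass, with log2 fold changes of -0.82 to 0.07 and a median of -0.35. Among all genes, 17.3% were higher and 13.7% lower. The median of the 18 genes in each mouse, relative to the control mean, was -0.88 to 0.08 in the treated and -0.24 to 0.47 in the control mice. The genes named in this paragraph and the next that did not pass were named after their values were seen. Fdps, which makes farnesyl diphosphate, had ratios of -1.44 to 0.23 (median -0.07) in treated and of -0.08 to 1.00 (median 0.44) in control mice, with the lowest values of -1.44 and -1.18 in treated mice 2 and 6. Its log2 fold change was -0.82 (95% interval -1.55 to -0.10, limma adjusted p = 0.0791). Msmo1 and Cyp51, which remove methyl groups from lanosterol, had log2 fold changes of -0.79 (95% interval -1.52 to -0.06) and -0.76 (95% interval -1.48 to -0.03). Hmgcs1, the HMG-CoA synthase of the cytosol, had -0.57 (95% interval -1.26 to 0.12), and Sqle, the squalene epoxidase, -0.22 (95% interval -0.60 to 0.15). Without treated mouse 5, Msmo1 (-0.99, limma adjusted p = 0.0342) and Fdft1, the squalene synthase (-0.79 against -0.66, adjusted p = 0.0431), passed the test. With array weights, Fdps (limma adjusted p = 0.0252), Fdft1 (0.0407), Msmo1 (0.0436) and Cyp51 (0.0487) passed as lower too, and at the false discovery rate of 0.16 that the methods used these 4 and Lss passed.

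The members that fell did so by little. Dhcr7, the last enzyme of the pathway, fell by 0.41 (SE 0.15, limma adjusted p = 0.0354). The probe named Acat2 fell by 0.31 (SE 0.11, adjusted p = 0.0428). That symbol stands for a cytosolic thiolase but has also been used for a sterol acyltransferase. With each array left out in turn, the adjusted p reached 0.0915 for Dhcr7 (without control mouse 2) and 0.113 for Acat2 (without treated mouse 2). Dhcr7 lost its call without control mouse 2, 3, 4 or 5 or treated mouse 2, 3, 4 or 6, at log2 fold changes of -0.41 to -0.35. Acat2 lost it without control mouse 1, 2, 3 or 4 or treated mouse 2, 4, 5 or 6, at -0.31 to -0.25. Both calls also ended with spike-in loess and the deposited ratios.

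**Figure D3:**
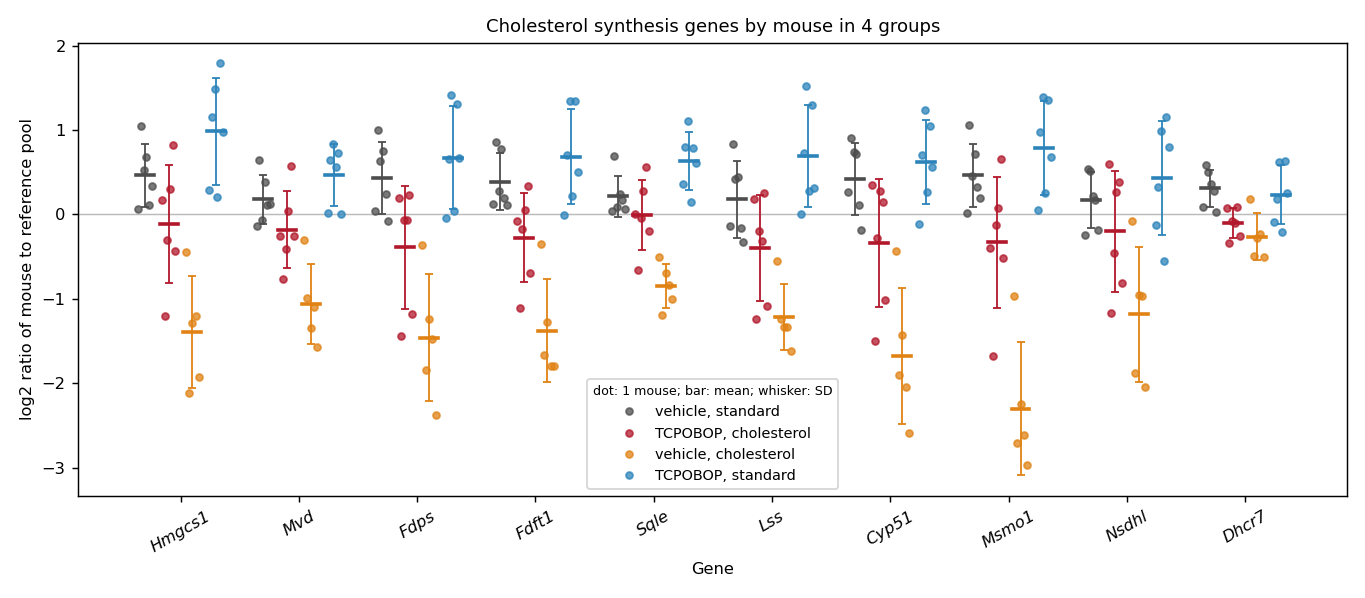
Log2 ratio of each mouse to the reference pool for 10 cholesterol synthesis genes in 4 groups (6 mice each, 5 for vehicle on cholesterol diet); dots are mice, bars means and whiskers SDs. The mice given TCPOBOP on cholesterol diet (red) have means between those of both vehicle groups (grey and orange), with wide spread.

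Set beside the single exposures, which share the 6 control mice, the medians of the 18 genes were -0.35 with both, 0.25 with TCPOBOP alone and -1.21 with cholesterol alone, where 13 of 18 were lower among 40 genes called in all (14.4%). For Msmo1 the log2 fold changes were -0.79, 0.32 and -2.77 in that order, for Cyp51 -0.76, 0.19 and -2.10, and for Fdps -0.82, 0.24 and -1.89. Tested directly, 12 of the 18 genes were higher in mice given TCPOBOP on cholesterol diet than in mice given vehicle on that diet, where 23.1% of all genes were called higher, and 2 were lower. Msmo1 was higher there by 1.97 (SE 0.37, limma adjusted p = 0.000228) and Cyp51 by 1.34 (SE 0.36). Against TCPOBOP on standard diet, 3 of the 18 were lower, where 3.61% of all genes were. Lss, the lanosterol synthase, was lower by 1.09 (SE 0.29, limma adjusted p = 0.0406) and Sqle by 0.64 (SE 0.18, limma adjusted p = 0.0443).

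Promoters of 3 genes of the pathway are shown for the CCAAT box, the site of the NF-Y factor that acts beside SREBP2 on sterol genes. Hmgcs1 lies at chr13:119690101-119690400 on the plus strand, Cyp51 at chr5:4104648-4104947 and Msmo1 at chr8:64733529-64733828 on the minus strand. Capitals mark CCAAT on either strand.
Hmgcs1: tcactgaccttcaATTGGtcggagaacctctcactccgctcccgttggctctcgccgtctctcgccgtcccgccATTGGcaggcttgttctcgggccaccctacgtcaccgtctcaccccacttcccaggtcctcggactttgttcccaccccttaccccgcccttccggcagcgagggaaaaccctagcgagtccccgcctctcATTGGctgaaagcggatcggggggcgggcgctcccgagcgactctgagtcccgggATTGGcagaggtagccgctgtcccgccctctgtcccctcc
Cyp51: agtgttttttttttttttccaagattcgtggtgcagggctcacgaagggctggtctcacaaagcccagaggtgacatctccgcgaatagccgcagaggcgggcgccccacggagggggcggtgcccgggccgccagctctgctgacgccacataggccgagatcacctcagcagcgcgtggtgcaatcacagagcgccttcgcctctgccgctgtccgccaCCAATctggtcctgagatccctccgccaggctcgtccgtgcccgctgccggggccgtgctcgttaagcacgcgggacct
Msmo1: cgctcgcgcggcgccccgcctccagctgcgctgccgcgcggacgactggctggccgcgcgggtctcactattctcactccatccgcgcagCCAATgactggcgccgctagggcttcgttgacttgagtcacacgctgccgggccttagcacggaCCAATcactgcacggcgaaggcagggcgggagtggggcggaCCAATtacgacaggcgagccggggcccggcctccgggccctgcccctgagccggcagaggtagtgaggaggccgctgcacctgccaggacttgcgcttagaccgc
The box occurs 4 times in the Hmgcs1 window, 1 time in that of Cyp51 and 3 times in that of Msmo1. Of the 18 genes, 13 have a window in the RefSeq table, and 12 of these genes hold CCAAT in at least 1 window, against 37.4% of the 32851 single windows of all genes.

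Among 9 genes of SREBP processing and sterol sensing, 3 rose and 6 did not pass, where 17.3% of all genes rose and 31% were called. Insig2, one of the proteins that retain SREBP, had ratios of -0.15 to 0.85 (median 0.72) in treated and of -0.92 to -0.49 (median -0.75) in control mice. It rose 2.46-fold (log2 fold change 1.30, SE 0.13, limma adjusted p = 5.24e-08), and treated mouse 3 was the lowest. Mbtps1, the protease that makes the first cut in SREBP, rose 2.79-fold (log2 fold change 1.48, SE 0.14, limma adjusted p = 3.31e-08) and Mbtps2, the protease of the second cut, by 0.26 (SE 0.07). Insig1, a target of SREBP, had a log2 fold change of 0.12 (95% interval -0.29 to 0.52), beside 0.75 with TCPOBOP alone and -0.46 with cholesterol alone. Srebf1 and Srebf2 were not well above background in either group.

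**Figure D4:**
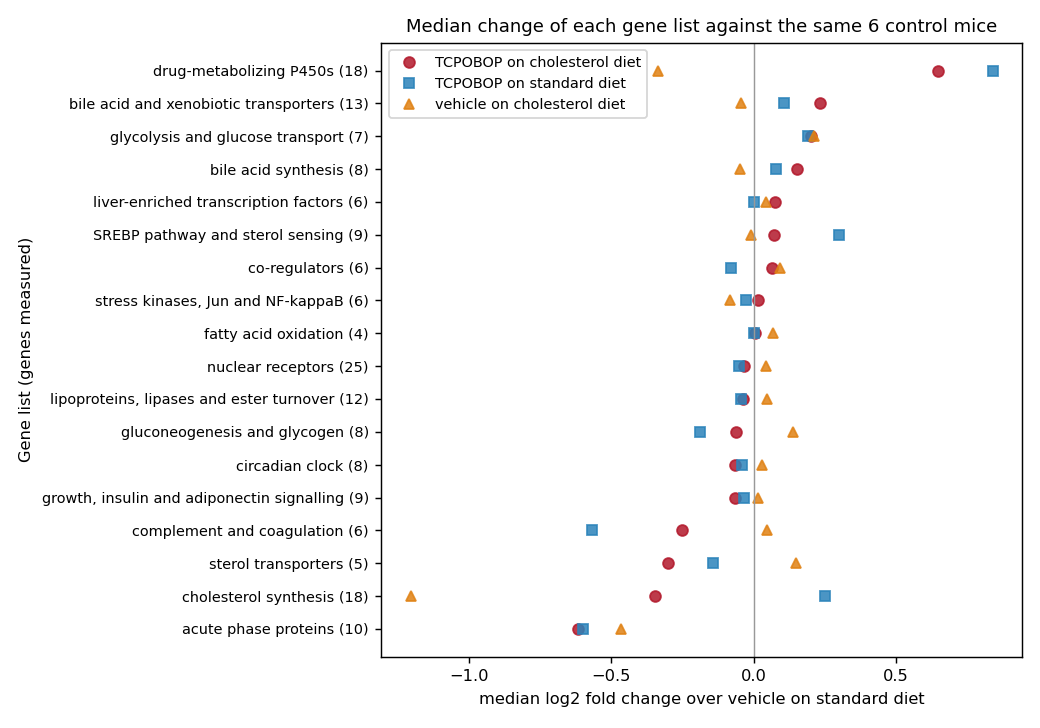
Median log2 fold change of each list with 4 or more measured genes, over vehicle on standard diet, for TCPOBOP on cholesterol diet (circles), TCPOBOP on standard diet (squares) and vehicle on cholesterol diet (triangles). All 3 share the 6 control mice. Cholesterol synthesis has medians of -0.35, 0.25 and -1.21.

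Each single exposure was also set against the same 6 control mice. TCPOBOP alone called 43.3% of all genes (22% higher, 21.3% lower) and cholesterol alone 4.69% higher and 9.75% lower. Of the 48 genes higher with both exposures, 37 were called higher with TCPOBOP alone and not called with cholesterol alone. Of the 38 lower genes, 27 were called lower with TCPOBOP alone and not with cholesterol alone. That pattern also held for 11 genes higher and 24 lower with TCPOBOP alone that were not called with both. Sharing the control mice raises such overlap of calls, so these counts are descriptive only. Of the rest of the 48 genes, 4 were higher under each exposure. Mlxipl had log2 fold changes of 1.15 with both, 0.81 with TCPOBOP alone and 0.85 with cholesterol alone, and Abcb11 of 0.64, 0.37 and 0.49. Apoa4 had 1.91, 2.11 and 0.93, and Nr5a2 0.43, 0.29 and 0.27. A further 5 were higher with both and with TCPOBOP but lower with cholesterol, such as Abcc3 (1.13, 1.26 and -0.89) and Cyp3a13 (1.08, 1.23 and -0.72).

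C9, a component of the membrane attack complex, had log2 fold changes of -0.93 with TCPOBOP alone and 0.96 with cholesterol alone. With both, the treated mice split around the controls, which ran from -0.71 to -0.08. Of the treated mice, 2 lay above all controls and 4 below all of them, from -1.22 to 0.33. On each side, 1 mouse lay only just beyond the controls. The log2 fold change of -0.20 (95% interval -0.68 to 0.29) is thus a mean of opposite deviations, and it was 0.29 within the 4 arrays with spot positions in micrometres and -0.44 within the 8 in millimetres. Cyp4f14, a fatty acid hydroxylase, had 0.18 with both (95% interval -0.02 to 0.38), -0.04 with TCPOBOP alone and 0.81 with cholesterol alone. The uptake carrier Slco1a1 had 0.10 (95% interval -0.23 to 0.44), -0.11 and 0.67. These 3 genes were chosen after their values were seen.

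Compared directly with TCPOBOP on standard diet, the mice with both exposures differed in 12 of 277 genes (4.33%), of which 2 were higher (0.722%) and 10 lower. Foxa2 was higher by 0.57 (SE 0.10, limma adjusted p = 0.000922), and Slco2b1, an uptake carrier of steroid conjugates, by 0.27 (SE 0.08). Cyp2a4 was lower by 0.76 (SE 0.11, limma adjusted p = 0.000356), Insig2 by 0.54 (SE 0.13), Cyp3a25 by 0.47 (SE 0.10) and Cyp2a12 by 0.44 (SE 0.09). Pla2g6, a phospholipase, was lower by 0.44 (SE 0.12), although at least 1.29-fold higher than in the control mice, in none of which it was well above background. Cyp2b10 (-0.29, SE 0.15, limma adjusted p = 0.321) and Ppp1r3c (0.31, SE 0.18, adjusted p = 0.358) did not pass that test. The mice of these groups also differed in age (18 against 19 weeks), as did those of the comparison with vehicle on cholesterol diet, and the part of age was not tested.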

How the data were processed

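Per the deposited files, the authors' scanner tables hold the mean intensity of each spot and its local background in both channels, neither subtracted nor normalized; software was not given in the sources used here. The authors also deposited normalized log2 ratios per probe, used as an alternative. Their direction is the same (r of 0.917 to 0.996 per array), column medians were -0.38 to 0.203, and their centring is unknown.

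Background was corrected with normexp (offset 50). Loess was fitted within each array to the mouse spots, and log2 ratios were averaged over 3 to 6 spots. Of 284 mouse probes (277 genes), 222 matched a RefSeq symbol, 51 a synonym and 11 keep the name in the file. For 6 genes with several probes the brightest was used. A probe was above background where most spots passed the background median by 2 SDs. One limma fit (3.58.1, R 4.3.3) of 23 arrays in 4 groups gave every contrast, because the groups share 1 estimate of spread. The fit was also run on simulated data. The Benjamini-Hochberg method was applied over the 277 genes, at 0.05. The labels give separate mice, and the number of arrays limits the precision.

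Members and lists were chosen with earlier results of these data known. Genes were named from the 10 largest rises and falls, Cyp2b10, Cyp3a11, and list members that passed or define their list. C9, Cyp4f14, Slco1a1 and others so marked were chosen after their values were seen. So were Pla2g6, Slco2b1, Slc10a1, Scd1, Saa4, Alb, Apcs, Hpx, Hnf4a, Cyp2c40 and Idi1, which are not marked above. Some genes are not reported by name but stay in all counts. Promoters come from RefSeq (GRCm38.p6). Alternatives covered background, scaling, summaries, fit, batch, filter, test, threshold and each array left out.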

Additional observations from a re-analysis of the deposited data

Results flagged for a closer look

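In 27 of 228 groups of 6 mice looked at (114 genes in 2 groups), 1 mouse lay far from the other 5 by Dixon's test of the gap, which flags about 1 in 20 groups by chance. All values are log2 ratios to the reference pool, and no cause was tested.

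Treated mouse 3 was the one that lay apart in 7 genes. It was high in Saa1 (0.34), Saa2 (0.34), Saa3 (0.72), Hpx (0.047) and Cry1 (0.29), and low in Cyp1a2 (0.28) and Insig2 (-0.15). Its Cyp2b10 ratio of 0.99 was the lowest of the treated mice, whose highest was 1.30, and lay above all controls.

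Of the other treated mice, mouse 1 was low in Cyp7b1 (0.069) and Foxa2 (-0.19) and high in Abcc2 (0.94). Mouse 5 was low in Abcg5 (-0.88), Mapk9 (-0.24) and Idi1 (-0.52). Mouse 6 was high in Cyp2b9 (1.33), Cyp8b1 (0.048) and Mbtps2 (0.34).

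Among the control mice, mouse 1 was low in Insig1 (-0.91) and high in Pla2g6 (-0.19). Mouse 2 was low in Mlxipl (-0.81) and high in Sqle (0.69) and Cyp2c40 (0.30). Mouse 4 was low in Jun (-0.43) and Hnf4a (-0.19), mouse 5 was high in Saa3 (1.56) and Orm1 (0.50), and mouse 6 was low in Cyp1a1 (-0.18) and Scd1 (-1.76).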

How the results depend on the processing

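Over 18 other settings of background, scaling, summary, fit, batch, filter, test and threshold, run for the count of genes, the named genes and the lists, the count of 86 genes stayed within 1.5 times except within the 4 arrays whose spot positions are in micrometres (2 per group), where 38 genes passed (26 higher, 12 lower). Within the 8 arrays in millimetres 70 passed, and with this batch as a block 89. Leaving out each array in turn gave 79 to 89 genes. Of the 76 named genes that passed, all 76 kept their direction within both batches, and 32 kept direction and call under every setting run. The direction of Adipoq turned with the deposited log ratios (0.17, limma adjusted p = 0.476), which moved the median of the genes they hold by 0.11 and called 60 of 187 genes. Against that shift, their list medians of 0.12 for nuclear receptors and 0.11 for liver transcription factors stand near the median gene. Spike-in loess turned the nuclear receptor median to 0.09. The cause of these differences was not tested.

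With the replicate number as a block, 98 genes passed (53 higher, 45 lower), including all 86. The numbers were not taken to pair the mice. Same-numbered mice of the 2 compared groups deviated together with correlations of -0.56 to 0.45, and 2 of 6 numbers matched best with themselves. The numbers do follow the batch, since 1 and 2 are the arrays in micrometres and 3 to 6 those in millimetres. This check cannot exclude a shared block. Probes below background in both groups (55 genes) limit what could be measured of low transcripts.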
